A study of Mus musculus with 6 samples.

Results

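The genes described here are 9 transcription factors that specify or maintain hair cells (HCs), the sound-sensing cells of the cochlea. They are Atoh1, Pou4f3, Gfi1, Barhl1, Lhx3, Insm1, Rfx1, Rfx2 and Rfx3. They were taken by symbol from a deposited table of RNA-seq counts, which held 9 of the 9 among its 24421 gene symbols, and their counts were compared between control and neomycin-treated cochlear explants. An explant is a piece of the inner ear kept in culture, here from wild-type mice at postnatal day 2. Neomycin is an aminoglycoside antibiotic that is toxic to HCs. Each of the 3 control and 3 neomycin samples was RNA from a pool of 6 to 8 cochleae. Neomycin explants were cultured for 12 h, received neomycin at 1 mM over 6 h, and were then kept 5 days with EdU, a nucleoside that marks dividing cells, at 10 μM. Control explants are taken here as receiving no neomycin, as the study describes them, although the growth text of the labels is the same for all 6 samples and names neomycin in each. The labels number the samples but do not say whether pools came from separate litters or culture days, so the p-values measure the spread between these pools. The stria vascularis, modiolus and tectorial membrane were dissected away, but an explant still holds HCs, supporting cells (SCs), mesenchyme and other cells, and a lower level of a factor can mean fewer cells or less RNA per cell, which cannot be told apart in these samples.

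ATOH1 is the basic helix-loop-helix protein that starts HC formation, and its level falls in HCs as they mature. POU4F3, GFI1, BARHL1 and LHX3 come on after it, and HCs that lack POU4F3, GFI1 or BARHL1 form and then degenerate. INSM1 is a zinc finger protein made for a short time in nascent outer HCs, and the RFX proteins bind the X-box of ciliary genes, with RFX1 and RFX3 needed for outer HCs to survive.

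Total counts ran from 50471116 to 66068108 per sample, and the 10 genes with most counts took 6.19% to 6.97% of a sample. Levels are given as CPM, counts scaled to a common library size with TMM factors, which assumes that most genes do not change. Of the table, 15988 genes had enough counts to be tested with edgeR's quasi-likelihood test, with p-values adjusted over all of them by the Benjamini-Hochberg method. A gene was called at an adjusted p under 0.05 and a fold change over 1.5, and 1413 genes were called, 358 higher and 1055 lower after neomycin. The median log2 fold change over the genes tested was -0.0041. HC markers were present in all samples, and 23 of 29 HC effector genes were called lower after neomycin. That list holds genes for the bundle, synapse and electromotility of HCs. It also holds others, such as calcium buffer genes and Fbxo2, which is not particular to HCs.

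All 9 factors had enough counts to be tested. Pou4f3, Gfi1, Barhl1 and Lhx3 were called lower after neomycin, whereas Atoh1, Insm1, Rfx1, Rfx2 and Rfx3 were not called and had log2 fold changes between -0.19 and 0.18. The called factors were thus 4 of 9, where 8.84% of all genes tested were called. All 4 were lower, where 6.60% of all genes were called lower. By edgeR, DESeq2 or limma-voom 0 of 9 were called higher, where edgeR called 2.24% of all genes higher. At an unadjusted edgeR p under 0.05, 0 of 9 were higher. The share of all genes at that p was not counted, and at the adjusted p alone 12.9% were higher. The groups did not overlap in CPM for the same 4 of the 9 factors, against 43.5% of all genes tested.

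Pou4f3 encodes a POU-domain factor that HCs need in order to survive (chr18:42394539-42397249 of the GRCm38 build, plus strand, with 2 exons). It stood at 23.8, 24.9 and 26.8 CPM in the control samples 1, 2 and 3, and at 8.002, 5.27 and 3.52 CPM in the neomycin samples 1, 2 and 3. The groups were far apart, and the neomycin samples differed more among themselves than the control samples did. The mean fell from 25.2 ± 1.52 CPM (SD, n = 3) to 5.60 ± 2.26 CPM (SD, n = 3), which is 22.2% of the control mean, and the remaining share was 31.8% in neomycin 1 and 14.0% in neomycin 3. The log2 fold change was -2.17 (SE 0.21, 95% interval -2.63 to -1.71) with an edgeR adjusted p of 2.69e-05. Only 116 of the 15988 genes tested had a lower log2 fold change. The counts behind these levels ran from 189 to 1642, so the counting error was small beside the spread between pools.

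Gfi1 encodes a zinc finger repressor that keeps neuronal genes off in HCs (chr5:107716657-107726036, minus strand). Its levels were 13.4, 15.1 and 17.95 CPM in the control samples and 5.71, 4.02 and 3.41 CPM in the neomycin samples. Every neomycin sample lay below every control sample, with neomycin 1 again the highest of its group and neomycin 3 the lowest. The mean went from 15.5 ± 2.30 to 4.38 ± 1.19 CPM (SD, n = 3 each), a remainder of 28.3%, with a log2 fold change of -1.82 (SE 0.18, 95% interval -2.21 to -1.43) and an edgeR adjusted p of 3.03e-05. The exons of Gfi1 share 101 bases with a gene on the opposite strand, A430072P03Rik, which is not among the deposited symbols. Whether reads of A430072P03Rik were counted for Gfi1 is not known. The strand setting of the counting is not given in the sources used here.

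Barhl1 encodes a homeodomain factor required for the long-term maintenance of HCs (chr2:28907679-28916668, minus strand). Control samples held 7.07, 6.27 and 7.24 CPM, and neomycin samples held 3.13, 2.08 and 1.49 CPM. The groups did not overlap, and the order of the neomycin samples was that seen for Pou4f3 and Gfi1. Its mean fell from 6.86 ± 0.520 to 2.23 ± 0.828 CPM (SD, n = 3 each), leaving 32.6%, with a log2 fold change of -1.62 (SE 0.23, 95% interval -2.12 to -1.12) and an edgeR adjusted p of 0.000445. Around the start of Barhl1, the sequence of the reference genome held matches to sites of 3 kinds of factor named here, so it is shown as the 250 bases before the start and the first 10 bases of the transcript (RefSeq, GRCm38.p6, chr2:28916659-28916918, minus strand, written 5′ to 3′, matches in capitals).
Barhl1: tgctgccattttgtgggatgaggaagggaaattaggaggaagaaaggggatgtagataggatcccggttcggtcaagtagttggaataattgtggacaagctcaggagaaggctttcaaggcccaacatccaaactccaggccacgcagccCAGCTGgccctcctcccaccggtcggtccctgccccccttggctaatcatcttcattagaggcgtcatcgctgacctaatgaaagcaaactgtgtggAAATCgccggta
The first match is CAGCTG, one form of the E-box bound by basic helix-loop-helix proteins, 99 bases before the start. The other is AAATC, the core of the GFI1 site, at the start itself. A further match, ATTAAT, the core of the POU4 site, lay 31 bases after the start and outside the stretch shown. On either strand of 32851 RefSeq promoter windows of 300 bases, CAGCTG was present in 16.3%, AAATC in 35.85% and ATTAAT in 4.746%. The windows of Gfi1 and Lhx3 held none of these letters and no CAGATG, another E-box form that 17.15% of windows held, and the table had no window for Pou4f3 and Insm1. Such matches describe the letters only, and binding was not measured.

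Lhx3 encodes a LIM homeodomain factor of HCs (chr2:26200212-26208289, minus strand). It was at 5.67, 6.84 and 8.50 CPM in the control samples and at 2.50, 2.97 and 2.27 CPM in the neomycin samples. The groups were separate, but here neomycin 2 was the highest of its group and the 3 neomycin samples lay close together. The mean fell from 7.005 ± 1.43 to 2.58 ± 0.354 CPM (SD, n = 3 each), leaving 36.8%, with a log2 fold change of -1.44 (SE 0.19, 95% interval -1.85 to -1.02) and an edgeR adjusted p of 0.000282. Its exons share 188 bases with Gm27196 on the opposite strand, which is not among the deposited symbols. Over all genes tested, 3.53% fell by more than 1 on the log2 scale at an adjusted p under 0.05, and these 4 factors were among them.

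**Figure D1:**
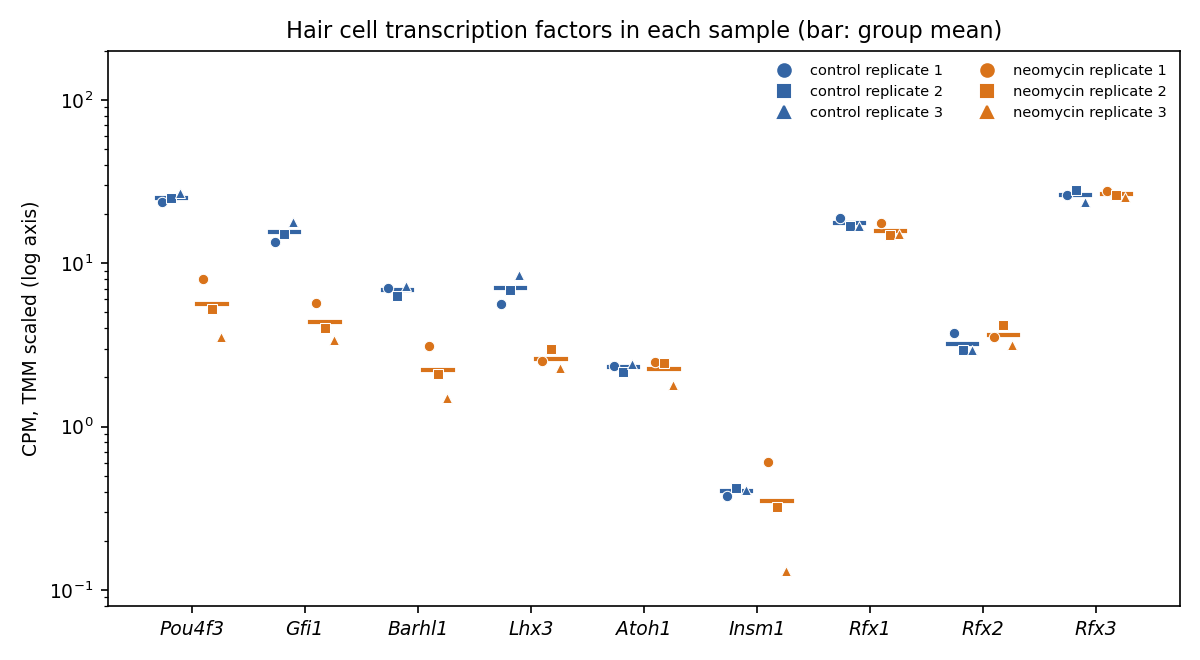
CPM (TMM scaled, log axis) of each of the 9 factors in the 3 control samples (blue) and the 3 neomycin samples (orange); the marker shape gives the replicate and the bar the group mean. The groups are separate for Pou4f3, Gfi1, Barhl1 and Lhx3 and overlap for the other 5 factors, and Insm1 spreads from 0.130 to 0.603 CPM over the neomycin samples.

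Atoh1, a gene of 1 exon at chr6:64729125-64731245 (plus strand), stood at 2.36, 2.17 and 2.42 CPM in the control samples and at 2.49, 2.44 and 1.81 CPM in the neomycin samples. The groups overlapped: neomycin 1 and 2 were above all control samples and neomycin 3 was below them. The means were 2.32 ± 0.133 and 2.24 ± 0.380 CPM (SD, n = 3 each), and the log2 fold change was -0.05 (SE 0.22, 95% interval -0.53 to 0.44), with an edgeR adjusted p of 0.900. This interval covers a fall of 0.53 and a rise of 0.44 on the log2 scale, and does not reach the log2 fold change of -1.02 that bounds the interval of Lhx3. The counts of Atoh1 ran from 97 to 163.

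Insm1, at chr2:146221921-146225020 (plus strand, 1 exon), was the factor with fewest reads. It had 26, 22 and 23 counts in the control samples and 32, 19 and 7 in the neomycin samples, or 0.377, 0.422 and 0.409 CPM against 0.603, 0.322 and 0.130 CPM. The control samples were close together, and the neomycin samples lay on both sides of them. Its log2 fold change was -0.19 with a wide 95% interval of -1.35 to 0.96 (SE 0.53, edgeR adjusted p of 0.812), so a fall of the size seen for Barhl1 lay outside this interval but one past the fold threshold did not, and no difference was detectable with these counts and this spread between the neomycin samples.

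Rfx1 and Rfx3 had the narrowest intervals of the 9 factors. Rfx3 (chr19:27761721-28011166, minus strand) was at 26.3, 28.2 and 23.6 CPM in the control samples and at 27.7, 26.0 and 25.4 CPM in the neomycin samples, a log2 fold change of 0.02 (SE 0.09, 95% interval -0.18 to 0.22, edgeR adjusted p of 0.891). Rfx1 (chr8:84066834-84096992, plus strand) was at 19.0, 17.0 and 16.8 CPM against 17.6, 14.97 and 15.01 CPM, a log2 fold change of -0.15 (SE 0.10, 95% interval -0.37 to 0.07, edgeR adjusted p of 0.288). Rfx2 (chr17:56775897-56831013, minus strand) was at 3.75, 2.93 and 2.95 CPM against 3.54, 4.20 and 3.16 CPM, a log2 fold change of 0.18 (SE 0.19, 95% interval -0.24 to 0.60, edgeR adjusted p of 0.526). The groups overlapped for all 3 RFX genes. The intervals of Rfx1 and Rfx3 held no change past the 1.5-fold threshold in either direction, and that of Rfx2 reached just past it on the higher side. Rfx1 shares 42 exon bases with C330011M18Rik on the opposite strand, which is not among the deposited symbols.

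These 3 RFX genes also shared a sequence feature. Each of their promoter windows held 1 match to GTTGCC, the core to which RFX proteins themselves bind, and none of the other windows of the 9 factors in the table did. Over all windows, 12.51% held it on either strand. The match began 1 base after the start base of Rfx1, 31 bases after that of Rfx3 and 116 bases before that of Rfx2. The 30 bases around it are shown because they let the 3 genes be compared (RefSeq, GRCm38.p6, written 5′ to 3′ along each gene, GTTGCC in capitals). They lie at chr8:84066825-84066854 on the plus strand for Rfx1, at chr17:56831107-56831136 on the minus strand for Rfx2 and at chr19:28011118-28011147 on the minus strand for Rfx3.
Rfx1: tgggtagcaacaGTTGCCccggtgagggaa
Rfx2: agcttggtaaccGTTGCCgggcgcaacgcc
Rfx3: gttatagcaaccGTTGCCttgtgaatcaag
With the capitals aligned, 13 of the 30 bases were the same in all 3 genes. Of these, 6 were the capitals, which were alike by the choice of the stretches. Another 5 were among the 12 bases before the capitals and 2 among those after them.

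**Figure D2:**
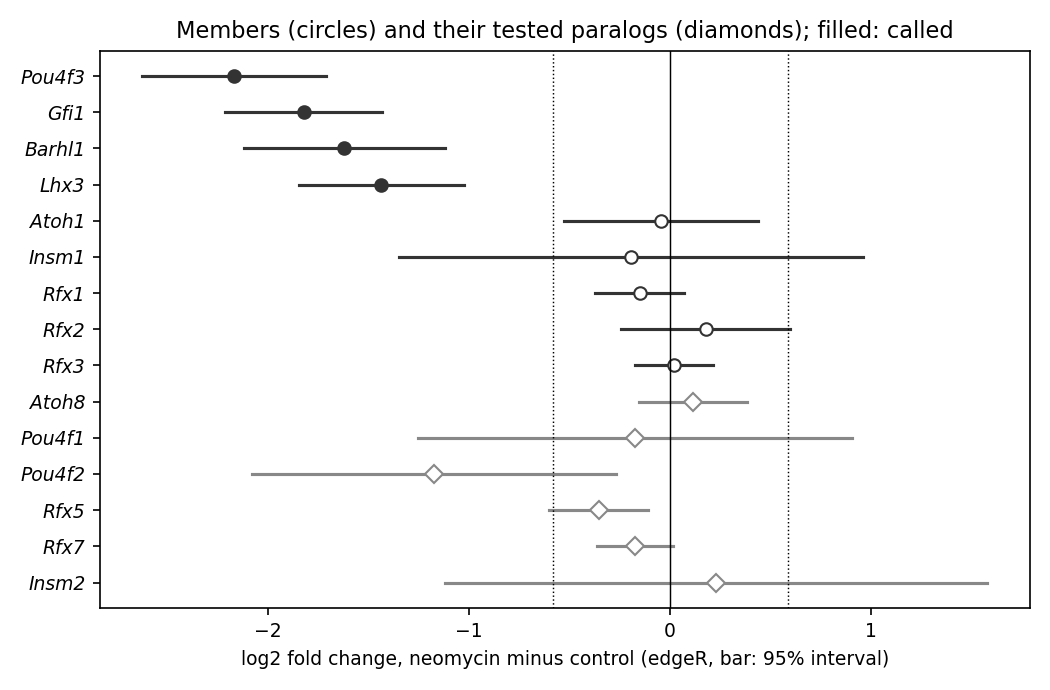
Log2 fold change of neomycin against control (edgeR, with the 95% interval as a bar) for the 9 factors (circles) and their 6 tested paralogs (diamonds); filled symbols were called and the dotted lines mark a fold change of 1.5. The intervals of Pou4f3, Gfi1, Barhl1 and Lhx3 lie wholly below the lower dotted line, and that of Rfx3, from -0.18 to 0.22, lies between the lines.

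Of 13 paralogs of the factors, 6 had enough counts to be tested, and edgeR and limma-voom called none of them. By edgeR 2 of the 6 had an unadjusted p under 0.05, a threshold not counted over all genes. DESeq2 called 1 of these 2, Pou4f2. Atoh7, Gfi1b, Barhl2, Lhx4 and Rfx6 were listed at 0 counts in all 6 samples, as were 4596 symbols of the table, and the sources used here do not say whether any symbol was set to 0. Rfx4, with 0 to 8 counts, and Rfx8, with 1 to 10 counts, were not tested. Pou4f2, a relative of Pou4f3 known from retinal ganglion cells, was at 1.33, 0.939 and 0.623 CPM in the control samples and 0.546, 0.441 and 0.298 CPM in the neomycin samples. These groups did not overlap, but its log2 fold change of -1.17 (SE 0.42) had an edgeR adjusted p of 0.0512 and missed the threshold. Among 14 alternatives it was called lower in 6, DESeq2's Wald test with an adjusted p of 0.0411 among them, and its adjusted p over the 14 ran from 0.0291 to 0.241. Pou4f1, a factor of sensory neurons, had 10 to 25 counts and a log2 fold change of -0.18 (SE 0.50, edgeR adjusted p of 0.819). Atoh8 was at 10.2 ± 1.36 against 11.003 ± 0.590 CPM (SD, n = 3 each), with a log2 fold change of 0.11 (edgeR adjusted p of 0.518). Rfx5, a regulator of the genes for MHC class II, was the one paralog past the adjusted p without the fold threshold, from 23.4 ± 2.77 to 18.3 ± 2.13 CPM (SD, n = 3 each) and with a log2 fold change of -0.35 (SE 0.11, edgeR adjusted p of 0.0341). Past that p alone, 16.1% of all genes were lower and 12.9% were higher. Rfx5 shares 1471 exon bases with B230398E01Rik on the opposite strand, which is not among the deposited symbols, and the groups of Rfx5 overlapped. Rfx7 was at -0.17 (SE 0.09, edgeR adjusted p of 0.154) and Insm2, with 6 to 13 counts, at 0.23 (SE 0.62, edgeR adjusted p of 0.811) on the log2 scale.

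Levels were compared between genes as CPM per kilobase of exon. In control samples the order was Pou4f3 at 10.5 ± 0.632, Gfi1 at 4.86 ± 0.721, Rfx1 at 2.74 ± 0.184, Rfx3 at 2.36 ± 0.206, Lhx3 at 2.30 ± 0.468, Barhl1 at 1.76 ± 0.133, Atoh1 at 1.09 ± 0.0626, Rfx2 at 0.439 ± 0.0640 and Insm1 at 0.130 ± 0.00749 CPM per kilobase (SD, n = 3 each). Rfx3 and Lhx3 were the only neighbours in this order whose samples overlapped. In neomycin samples the factors moved closer together. Rfx1 at 2.46, Rfx3 at 2.39 and Pou4f3 at 2.33 CPM per kilobase came first, then Gfi1 at 1.37, Atoh1 at 1.06, Lhx3 at 0.847, Barhl1 at 0.572, Rfx2 at 0.497 and Insm1 at 0.113. Neighbours in the neomycin order overlapped except Rfx2 and Insm1. Pou4f3 was thus first in every control sample, and Atoh1, below Lhx3 and Barhl1 in all control samples, overlapped with Lhx3 and lay above Barhl1 in the neomycin samples.

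Within a sample, the counts of Atoh1 can be set against those of the lower factors with no scaling of the libraries. Per count of Pou4f3 there were 0.0993, 0.0869 and 0.0903 counts of Atoh1 in control samples 1, 2 and 3, whereas the neomycin samples had 0.311, 0.463 and 0.513. All 3 neomycin ratios were above all control ratios. On the log2 scale the ratio was 2.19 higher after neomycin (SE 0.23), and those of Atoh1 to Gfi1, Barhl1 and Lhx3 were higher by 1.79 (SE 0.18), 1.62 (SE 0.20) and 1.37 (SE 0.19). Of the 20 ratios of an uncalled factor to a called one, 19 did not overlap between the groups, and their log2 differences ran from 0.98 to 2.43. Insm1 over Lhx3 was the exception (0.98, SE 0.61). Among the 4 lower factors themselves, the log2 ratio of Pou4f3 to Gfi1 differed by -0.40 (SE 0.15) and that of Pou4f3 to Barhl1 by -0.56 (SE 0.08) with no overlap, and the other 4 ratios overlapped. With 3 samples against 3 the smallest p of the exact two-sided permutation test is 0.1, which each ratio without overlap reached, or 0.124 after adjustment over the 26 ratios compared, so none could pass 0.05. The factors were picked with their fold changes known, so these ratios restate the differences above without the scaling.

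**Figure D3:**
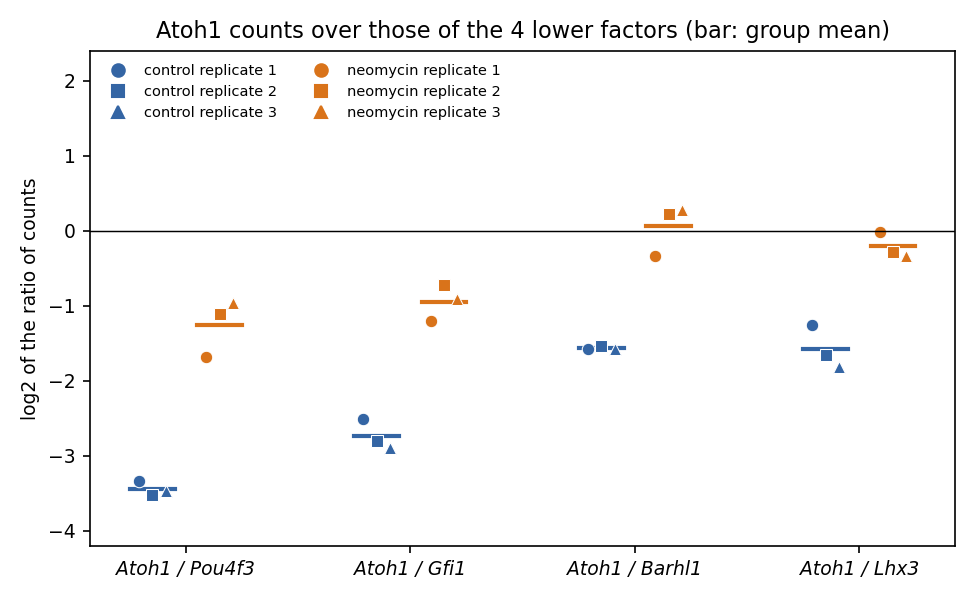
Log2 of the counts of Atoh1 over those of Pou4f3, Gfi1, Barhl1 and Lhx3 in the 3 control samples (blue) and the 3 neomycin samples (orange), with the group mean as a bar. For each of the 4 ratios the neomycin samples lie above the control samples, with group means apart by 2.19, 1.79, 1.62 and 1.37.

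The falls of the 4 factors were set beside those of the HC effector genes. Of the 29 effector genes tested, 10 fell by more than Pou4f3 and Gfi1 did, and 14 had a lower log2 fold change than Barhl1 and Lhx3. The lowest were Slc26a5, which encodes the outer HC motor prestin, from 25.8 ± 2.33 to 1.61 ± 0.280 CPM, and Ocm, the outer HC calcium buffer oncomodulin, from 303 ± 72.6 to 28.6 ± 2.94 CPM (SD, n = 3 each), with log2 fold changes of -3.99 (SE 0.14) and -3.41 (SE 0.15). The median over the 29 genes was -1.34, beside -0.0041 over all genes tested. Atoh1, Rfx1 and Insm1 had higher log2 fold changes than 25 of the 29. The counts of each factor were then divided by the summed counts of the effector genes of the same sample. On the log2 scale this ratio differed after neomycin by -2.01 for Pou4f3, -1.61 for Gfi1, -1.44 for Barhl1 and -1.19 for Lhx3, against 0.18 for Atoh1, 0.09 for Rfx1, 0.26 for Rfx3, 0.42 for Rfx2 and -0.22 for Insm1. In this ratio the 4 lower factors and Rfx3 did not overlap between the groups, a trait not counted over all genes. The exact permutation p was 0.1 for each, or 0.18 adjusted over the 9 factors. These differences depend on Fbxo2, the gene with by far the most counts of the list, for a ubiquitin ligase subunit that is abundant in the organ of Corti and not particular to HCs, which stood at 1544 ± 97.0 and 1843 ± 58.9 CPM (SD, n = 3 each). Its log2 fold change of 0.26 passed the edgeR adjusted p, at 0.0491, but not the fold threshold. Without Fbxo2 the log2 sum of the effector genes differed by -1.02 between the groups in place of -0.24, and the differences became -1.23 for Pou4f3, -0.83 for Gfi1, -0.66 for Barhl1, -0.41 for Lhx3 and 0.96 for Atoh1. Each of these 5 ratios then had groups that did not overlap, as did those of Rfx1, Rfx2 and Rfx3 but not that of Insm1. This was not counted over all genes either. Myo7a, the HC myosin, fell by 1.13 on this scale. Against it alone, the groups overlapped for Gfi1 (-0.72), Barhl1 (-0.55), Lhx3 (-0.30) and Insm1. They did not overlap for Pou4f3 (-1.12), Atoh1 (1.07), Rfx1, Rfx2 and Rfx3.

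For each of the 4 lower factors, the genes whose 6 values of log2 CPM, taken relative to the control mean, lay nearest to its own were found among 14028 genes with a mean of at least 1 CPM. For Pou4f3 they were Strip2, Myo15 and St8sia3, with root mean square differences of 0.142, 0.148 and 0.163. Myo15 is the myosin that carries proteins to stereocilia tips, and it fell from 11.2 ± 0.654 to 2.18 ± 0.817 CPM (SD, n = 3 each). The nearest to Gfi1 were Cdkl4 at 0.0887, Wee2 at 0.132 and Lrrc10b at 0.140. Those of Barhl1 were Apba1 at 0.137, Trim36 at 0.166 and Mycbpap at 0.170. Those of Lhx3 were the potassium channel gene Kcnj13 at 0.0735, then Pcp4l1 at 0.0953 and Cd164l2 at 0.118. All 12 were called lower, which follows from picking the genes nearest to factors called lower. Likeness over 6 samples in 2 groups is a description of these libraries.

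Other genes of the same pathways were taken from lists. Of 11 reported targets of ATOH1, 7 were lower and 1 higher at the adjusted p alone, with a median log2 fold change of -0.80. Without control 1, 1 target was called higher. In the main fit 6 were called lower and none higher. They were Pou4f3 and Barhl1 themselves, the GTPase gene Rasd2, which fell from 43.2 ± 4.11 to 9.90 ± 0.773 CPM (SD, n = 3 each), Mgat5b, the splicing regulator gene Srrm4 and the Notch ligand gene Dll1, whose call was lost in 4 of 15 alternatives (adjusted p 0.00515 to 0.0843). Of 20 other factors and regulators of HCs tested, 6 were called lower and none higher, with a median of 0.00. Srrm4 is in this list and in that of the ATOH1 targets, and was counted in both. At the adjusted p alone 8 of the 20 were lower and 2 higher. The most lowered were Nhlh1, a basic helix-loop-helix gene, from 4.12 ± 0.584 to 1.25 ± 0.0587 CPM, and Prox1, a homeobox gene that the list of SC markers also holds, from 4.08 ± 1.12 to 1.49 ± 0.328 CPM (SD, n = 3 each). None of 13 partners and repressors of ATOH1 was called by edgeR, DESeq2 or limma-voom, 5 had an unadjusted edgeR p under 0.05, and their median was 0.00. At the adjusted p alone, the inhibitors of basic helix-loop-helix proteins Id1, Id2 and Id3 were higher by 0.33, 0.42 and 0.30, and Huwe1, the ubiquitin ligase that marks ATOH1 for degradation, fell by 0.42 on the log2 scale. Among 17 ciliary genes with RFX sites none was called by these tools, with 7 at an unadjusted edgeR p under 0.05, 2 higher and 3 lower at the adjusted p alone and a median of 0.09.

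Markers of other cells in the explants also moved, and their part in the levels of the 9 factors was not tested. Of 14 SC markers, 2 were called lower, Prox1 and the receptor gene Fgfr3 (log2 fold change -0.66, SE 0.08). At the adjusted p alone S100a1, Gjb6 and Fabp7 were higher, by 0.46, 0.42 and 0.30, and Jag1 and Lfng were lower, by 0.31 and 0.36. The median of the list was 0.02. Its summed level was 2945 to 3342 CPM in control and 3685 to 3817 CPM in neomycin samples, and most of this gap was S100a1, at 1561 ± 216 and 2144 ± 126 CPM (SD, n = 3 each). Of 13 neuronal markers tested, 4 were called lower, the neurofilament gene Nefh at -1.21 (SE 0.34) and Nefl at -1.15 (SE 0.18) the most, and the median of the list was -0.60. The groups of Nefh overlapped, and 3 of 15 alternatives lost its call: DESeq2, and the fits without control 1 and without neomycin 3 (log2 fold change -1.52 to -0.65 and adjusted p 0.00211 to 0.0852 over the 15). The neuronal sums were 219.7 to 317.8 CPM in control and 211.8 to 228.1 CPM in neomycin samples. These ranges overlapped, with Syt1, which was higher at the adjusted p alone (55.5 ± 8.35 and 71.9 ± 11.4 CPM, SD, n = 3 each), a large share of the sums. Some of the 9 factors, Gfi1, Barhl1 and Insm1 among them, also have known expression in neurons. Of 7 glial markers, 1 was called lower, Erbb3 at -0.90 (SE 0.16), with sums of 534.7 to 588.2 and of 501.4 to 528.1 CPM. Endothelial markers were called lower for 4 of 6, with Cldn5 at -3.40 (SE 0.48) and Pecam1 at -2.71 (SE 0.26), while their sums, most of which was Emcn, were 275.2 to 307.1 and 265.3 to 315.6 CPM. Macrophage and blood cell markers were called higher for 4 of 13, with C1qc at 0.63 (SE 0.14) and Mrc1 at 0.62 (SE 0.14), sums of 93.7 to 129.4 and of 130.8 to 168.0 CPM, and the globin genes Hba-a1 and Hbb-bs listed at 0. These calls were fewest, 0, with no scaling factor and without control 1, and most, 6, without control 3. The neutrophil genes S100a8 and S100a9 had 138 and 258 counts in control 3 and 226 and 402 in neomycin 3, and at most 12 in any other sample. Of 9 mesenchymal markers, Col1a1 was called lower at -1.20 (SE 0.17) and Dcn higher at 0.64 (SE 0.10), with sums of 5855 to 6402 and of 6273 to 6491 CPM.

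**Figure D4:**
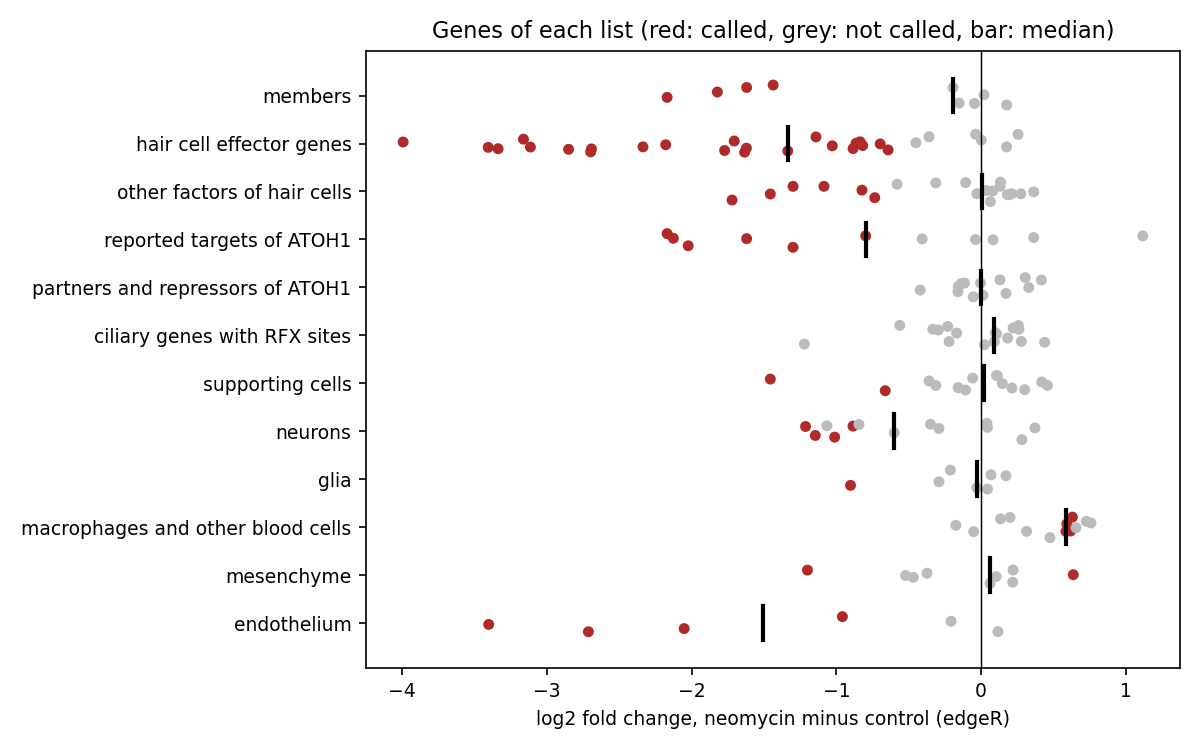
Log2 fold change of neomycin against control (edgeR) of the tested genes of each list, with called genes in red, others in grey and the list median as a black bar. The 4 called members lie between -2.17 and -1.44, within the range of the HC effector genes, whose lowest value is -3.99, and the other 5 lie beside 0.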

How the data were processed

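RNA of pooled cochlear explants was sequenced in 3 control and 3 neomycin samples. The authors called bases with Casava 1.8, trimmed reads with trimmomatic 0.23, aligned them to mm10 with Hisat2 and counted them on a UCSC annotation with HTSeq, per the methods and the submitters' processing notes. The authors deposited raw, unnormalized counts, 1 whole number for each gene symbol and sample. The strand setting and the handling of reads with several matches are not given in the sources used here, and reads of overlapping genes can be misassigned. Of the table's sample columns, 0 were left unmapped.

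The 9 factors, the gene lists and the tests were chosen with earlier results of these data known. Genes were filtered with filterByExpr, scaled by TMM and tested with edgeR 4.0.16 (glmQLFit and glmQLFTest, R 4.3.3), in place of the study's DESeq2, over all 15988 genes with Benjamini-Hochberg adjustment. The SE is the log2 fold change over the square root of F. Named are every factor, every paralog with counts, the 2 highest and 2 lowest called genes of each other list, and the 3 genes nearest to each called factor. Mgat5b, Srrm4, Dll1, the Id genes, Huwe1, Fbxo2, Myo7a, Emcn, Syt1, S100a1, Gjb6, Fabp7, S100a8, S100a9, the globin genes and the paralogs at 0 were named after their values were seen. Jag1, Lfng and Sox9 were too. Coordinates and merged exon lengths are those of GENCODE M21 (GRCm38, the mm10 assembly). Promoter windows, 250 bases before to 50 after a start, came from RefSeq and covered 7 of the 9 factors, with the most upstream start taken where a gene had several.

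Alternatives were DESeq2 1.42.0, limma-voom (limma 3.58.1), other scalings and filters, a replicate block and each sample left out. The labels do not say that same-numbered samples are pairs, so the main test took none. Deviations of same-numbered samples from their group means correlated at 0.165, 0.0264 and 0.0949, which does not settle whether they were pairs. Replicates differed by more than sampling noise (mean chi-square per gene 13.7 to 46.7). On simulated data of 15988 genes for this comparison, edgeR recovered 84 of 100 genes changed 2-fold and 97 of 100 changed 4-fold, with 6 false calls. Only 200 genes were changed there, as many up as down and at any level. It therefore does not show recovery at counts as low as those of Insm1, or with more genes lower than higher as here. Figures used matplotlib 3.10.9 and exact tests scipy 1.17.1 in Python 3.11.15.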

Additional observations from a re-analysis of the deposited data

How the results depend on the processing

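Pou4f3, Gfi1, Barhl1 and Lhx3 were called lower in each of 15 alternatives to the main test, with log2 fold changes of -2.51 to -1.93, -2.06 to -1.67, -1.94 to -1.40 and -1.56 to -1.26, and none of the other 5 factors was called in any. Leaving out each sample in turn gave log2 fold changes of -2.51 to -1.93 for Pou4f3, -2.06 to -1.67 for Gfi1, -1.94 to -1.40 for Barhl1, -1.56 to -1.26 for Lhx3, -0.12 to 0.088 for Atoh1, -0.23 to -0.087 for Rfx1, -0.033 to 0.084 for Rfx3, 0.059 to 0.31 for Rfx2 and -0.81 to 0.20 for Insm1. The sign turned for Atoh1 (0.088) and Insm1 (0.20) without neomycin sample 3, and for Rfx3 without control sample 3 (-0.033), without neomycin sample 1 (-0.017) and without a scaling factor (-0.050, where the median of all genes was -0.07). The cause was not tested. Insm1 could not be tested under a filter of at least 1 CPM in 3 samples. With the replicate number as a block, Pou4f3 was at -2.22 and no call among the 9 factors changed, the calls over all genes went from 1413 to 1465. Of the 6 samples, 5 correlated best with the sample of their own number, and control 2 correlated slightly better with neomycin 3 (0.0325) than with neomycin 2 (0.0264), which is a hint from the data and not from the design.

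A correction for exon length, chosen after seeing the data and based on lengths for 96.2% of the genes tested, left 1 factor past the adjusted p alone on the higher side (Rfx3, log2 fold change 0.22, edgeR adjusted p of 0.0490), and 0 without it. The ratios to the effector genes moved with the reference. Without Fbxo2 the differences were 0.96 for Atoh1, -1.23 for Pou4f3, -0.83 for Gfi1, -0.66 for Barhl1, -0.41 for Lhx3, 0.87 for Rfx1, 1.04 for Rfx3, 1.20 for Rfx2 and 0.56 for Insm1. Against Myo7a they were 1.07, -1.12, -0.72, -0.55, -0.30, 0.98, 1.15, 1.31 and 0.68 in the same order. Against the mean log2 CPM of the list, a reference chosen after seeing the data, they were 1.45, -0.74, -0.34, -0.17, 0.079, 1.36, 1.53, 1.69 and 1.05. Lhx3 thus turned from lower to higher there, as Insm1 did under all 3 references. Against that mean the groups of Gfi1, Barhl1, Lhx3 and Insm1 overlapped, and of the lower factors only Pou4f3 stayed apart. In the ratios to the sum of all 29 effector genes, leaving out a sample gave -2.31 to -1.71 for Pou4f3, -1.82 to -1.44 for Gfi1, -1.72 to -1.18 for Barhl1, -1.31 to -1.10 for Lhx3 0.099 to 0.33 for Atoh1, -0.0034 to 0.17 for Rfx1, 0.13 to 0.35 for Rfx3, 0.30 to 0.56 for Rfx2 and -0.73 to 0.38 for Insm1, so those of Rfx1 and Insm1 turned sign.

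Low counts limited Insm2, with 6 to 13, and Pou4f1, with 10 to 25, while for Insm1, with 7 to 32, the spread between neomycin samples was wide too. Over the 15 alternatives the called-lower effector genes numbered 20 to 23, the neuronal markers 3 to 7, and the called-higher macrophage and blood markers 0 to 6. Each group had 3 pools, which allows no exact p under 0.1 for a ratio.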

Other observations

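The neomycin samples differed among themselves in the level of HC genes and of some other genes. Pou4f3, Gfi1 and Barhl1 were each highest in neomycin 1 and lowest in neomycin 3. Of the 23 effector genes called lower, 16 were highest in neomycin 1, 6 in neomycin 2 and 1 in neomycin 3, while 14 were lowest in neomycin 3, 7 in neomycin 2 and 2 in neomycin 1. Atoh1 and Insm1 were also lowest in neomycin 3, at 78.0% and 32.4% of their control means, although neither was called. Lhx3 was lowest in neomycin 3 too but highest in neomycin 2. Among SC markers, Fgfr3, Jag1 and Lfng were also highest in neomycin 1 and lowest in neomycin 3, whereas Sox9 and S100a1 were the reverse. How many of all genes tested had either order was not counted, so the order is not shown to be particular to HC genes. The labels name no difference between these samples.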
